A study of Mus musculus with 8 samples.

Results

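The 28 genes described here belong to the DNA damage checkpoint and to the pathways that repair broken or mismatched DNA, and they were followed in spleen RNA from wild-type mice and mice with the Lmna R527C mutation. They were chosen by symbol: the Ensembl identifiers of the deposited count table were matched to mouse symbols, and all 28 were found among its 52636 genes. All 28 also passed the filter on low counts that left 17327 genes for testing. By role, 7 act in checkpoint signalling, 3 form the complex that binds broken ends, 5 act in end joining, 5 in homologous recombination and 2 in the Fanconi anaemia pathway. Of the rest, 3 act in base excision and single-strand break repair, while mismatch repair (Msh6), nucleotide excision repair (Ercc1) and chromatin regulation (Sirt6) have 1 each.

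The mice were C57BL/6 and 6 weeks old. The 4 groups were unirradiated wild type and unirradiated Lmna R527C mutants, both taken at day 0, and wild type and mutants taken 7 days after 4 Gy irradiation. Each group had 2 libraries, 8 in all, of polyadenylated RNA from whole frozen spleen. Lmna encodes lamins A and C of the nuclear lamina. Whether the mutants carried 1 or 2 mutant alleles, their sex, and whether replicates came from separate mice were not given in the sources used here, so p-values measure the spread between these libraries.

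Ionising radiation breaks both DNA strands. The ends are bound by the Mre11a-Rad50-Nbn complex, which activates the kinase Atm, while Atr answers single-stranded DNA at stalled replication forks. Both kinases act on Chek1, Chek2 and the histone H2afx and, with Mdc1 and Trp53bp1, hold the cell cycle while repair proceeds. End joining ligates ends at any stage of the cycle, whereas homologous recombination copies an intact sister chromatid and so works after replication. The spleen holds mostly resting lymphocytes, which are sensitive to radiation, and in the mouse it also makes red cells.

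Promoter windows are described before the levels, although the levels were computed first. The windows were searched because many recombination and replication genes are driven in dividing cells by E2F factors and by factors that bind CCAAT. RefSeq windows of 300 bases (250 before and 50 after the start site, build GRCm38.p6) were found for 23 of 28 members, as 28 windows. None was matched for H2afx, Rad50, Nbn, Prkdc and Fancd2. E2F-type letters (TTTCCCGC, TTTGGCGC, TTTCGCGC or TTTGCCGC on either strand) were in the windows of Brca2, Chek2, Lig1, Mdc1, Msh6 and Xrcc6, which is 6 of 28 windows or 21.4%. Of all 32851 windows in the RefSeq table, 2.26% held them. CCAAT on either strand was in 46.4% of the members' windows and 37.4% of all windows. No E2F-type match overlapped a CCAAT match, and a match is a description of the letters, not a measured binding site.

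The 7 windows printed here belong to the 3 members whose difference with irradiation passed the test (Atm, Atr and Fanca), to Brca1 as the recombination member with the smallest p, and to Chek2, Xrcc6 and Msh6, which were picked after their values were seen as members with E2F-type letters from 3 different roles. They lie at chr9:53536622-53536921 (Atm, minus strand), chr9:95857347-95857646 (Atr, plus strand), chr8:123318527-123318826 (Fanca, minus strand), chr11:101551906-101552205 (Brca1, minus strand), chr5:110839733-110840032 (Chek2, plus strand), chr15:82016119-82016418 (Xrcc6, plus strand) and chr17:87974800-87975099 (Msh6, plus strand). All run 5′ to 3′ along the gene's strand, and capitals mark the E2F-type letters and CCAAT, which read GCGGGAAA and ATTGG where they lie on the opposite strand.
Atm: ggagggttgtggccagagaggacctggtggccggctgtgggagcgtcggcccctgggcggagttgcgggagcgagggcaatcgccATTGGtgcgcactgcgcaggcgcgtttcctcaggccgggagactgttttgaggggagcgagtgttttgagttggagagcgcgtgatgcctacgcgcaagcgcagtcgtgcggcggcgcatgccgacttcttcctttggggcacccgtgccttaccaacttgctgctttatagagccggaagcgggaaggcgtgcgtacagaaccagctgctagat
Atr: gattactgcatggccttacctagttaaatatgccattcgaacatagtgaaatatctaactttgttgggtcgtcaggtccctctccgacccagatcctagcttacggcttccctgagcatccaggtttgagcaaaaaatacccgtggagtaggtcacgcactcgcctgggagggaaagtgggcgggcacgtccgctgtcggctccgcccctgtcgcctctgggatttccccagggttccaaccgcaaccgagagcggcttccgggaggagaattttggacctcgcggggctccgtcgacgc
Fanca: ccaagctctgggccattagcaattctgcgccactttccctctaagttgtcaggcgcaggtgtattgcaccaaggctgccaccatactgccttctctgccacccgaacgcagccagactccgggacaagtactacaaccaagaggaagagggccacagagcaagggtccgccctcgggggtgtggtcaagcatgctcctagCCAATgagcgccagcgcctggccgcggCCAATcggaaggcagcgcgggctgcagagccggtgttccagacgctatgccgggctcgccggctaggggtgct
Brca1: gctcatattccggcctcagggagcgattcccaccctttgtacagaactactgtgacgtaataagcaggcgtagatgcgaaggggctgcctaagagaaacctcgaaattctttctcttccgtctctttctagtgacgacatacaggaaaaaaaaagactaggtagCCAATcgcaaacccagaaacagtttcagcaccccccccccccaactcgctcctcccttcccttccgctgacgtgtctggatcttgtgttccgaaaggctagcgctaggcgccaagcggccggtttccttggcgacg
Chek2: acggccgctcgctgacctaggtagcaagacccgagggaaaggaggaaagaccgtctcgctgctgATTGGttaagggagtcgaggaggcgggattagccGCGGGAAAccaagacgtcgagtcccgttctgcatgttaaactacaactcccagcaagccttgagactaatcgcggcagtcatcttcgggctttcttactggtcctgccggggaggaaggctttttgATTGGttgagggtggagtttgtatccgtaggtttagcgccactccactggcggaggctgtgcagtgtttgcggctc
Xrcc6: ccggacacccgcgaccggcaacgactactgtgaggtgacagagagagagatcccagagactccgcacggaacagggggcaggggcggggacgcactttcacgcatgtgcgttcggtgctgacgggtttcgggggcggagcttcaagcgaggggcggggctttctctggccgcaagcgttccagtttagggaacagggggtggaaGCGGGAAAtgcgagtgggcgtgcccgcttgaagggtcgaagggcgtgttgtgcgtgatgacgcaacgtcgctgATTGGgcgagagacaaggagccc
Msh6: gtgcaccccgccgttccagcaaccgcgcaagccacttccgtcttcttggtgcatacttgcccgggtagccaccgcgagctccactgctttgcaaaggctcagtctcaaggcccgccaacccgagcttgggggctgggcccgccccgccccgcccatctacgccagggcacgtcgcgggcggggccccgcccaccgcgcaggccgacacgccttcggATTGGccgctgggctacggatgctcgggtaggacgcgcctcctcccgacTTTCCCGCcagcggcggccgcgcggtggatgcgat
The windows of the 3 members that were lower after irradiation hold none of the 4 exact E2F-type words, while 6 of the 23 members with a window do. Near matches, such as gcgggaag in the Atm window, were not counted. Chek2, Xrcc6 and Msh6 were picked for holding them. Their windows have 1 match each, with its first base at -152, -46 and 16 from the start site. Whether the letters go with the direction of a member was not tested. The Brca1 window holds CCAAT at -86 and none of the 4 E2F-type words.

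Levels are given as CPM, which is counts scaled to a common library size, over library sizes scaled by TMM, and differences as log2 fold change ± SE from 1 edgeR quasi-likelihood fit of all 8 libraries. P-values were adjusted by the Benjamini-Hochberg method over all 17327 genes, with a threshold of 0.05. The libraries held 12100784 to 19455470 counts, and the lowest count of any member was 30 (Lig4 in 1 irradiated mutant library), so every member lay above the floor of 3 counts in every library. Within each group the replicates differed by more than sampling noise, with a chi-square per degree of freedom of 20.5 to 352, highest in the irradiated mutant mice. Xist was 1030 to 1780 CPM in the irradiated libraries and at most 0.262 CPM in the others. The sum of 4 Y-linked genes was 264 to 299 CPM in the unirradiated libraries and 0 counts in the irradiated ones. Sex-linked transcripts therefore split the libraries exactly as irradiation and day do, and those differences cannot be told apart. Alb, a liver gene, was 38.6 to 312 CPM in irradiated libraries and had 0 counts in unirradiated ones. In whole-organ RNA, fewer cells of a type and less RNA per cell cannot be told apart either.

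**Figure D1:**
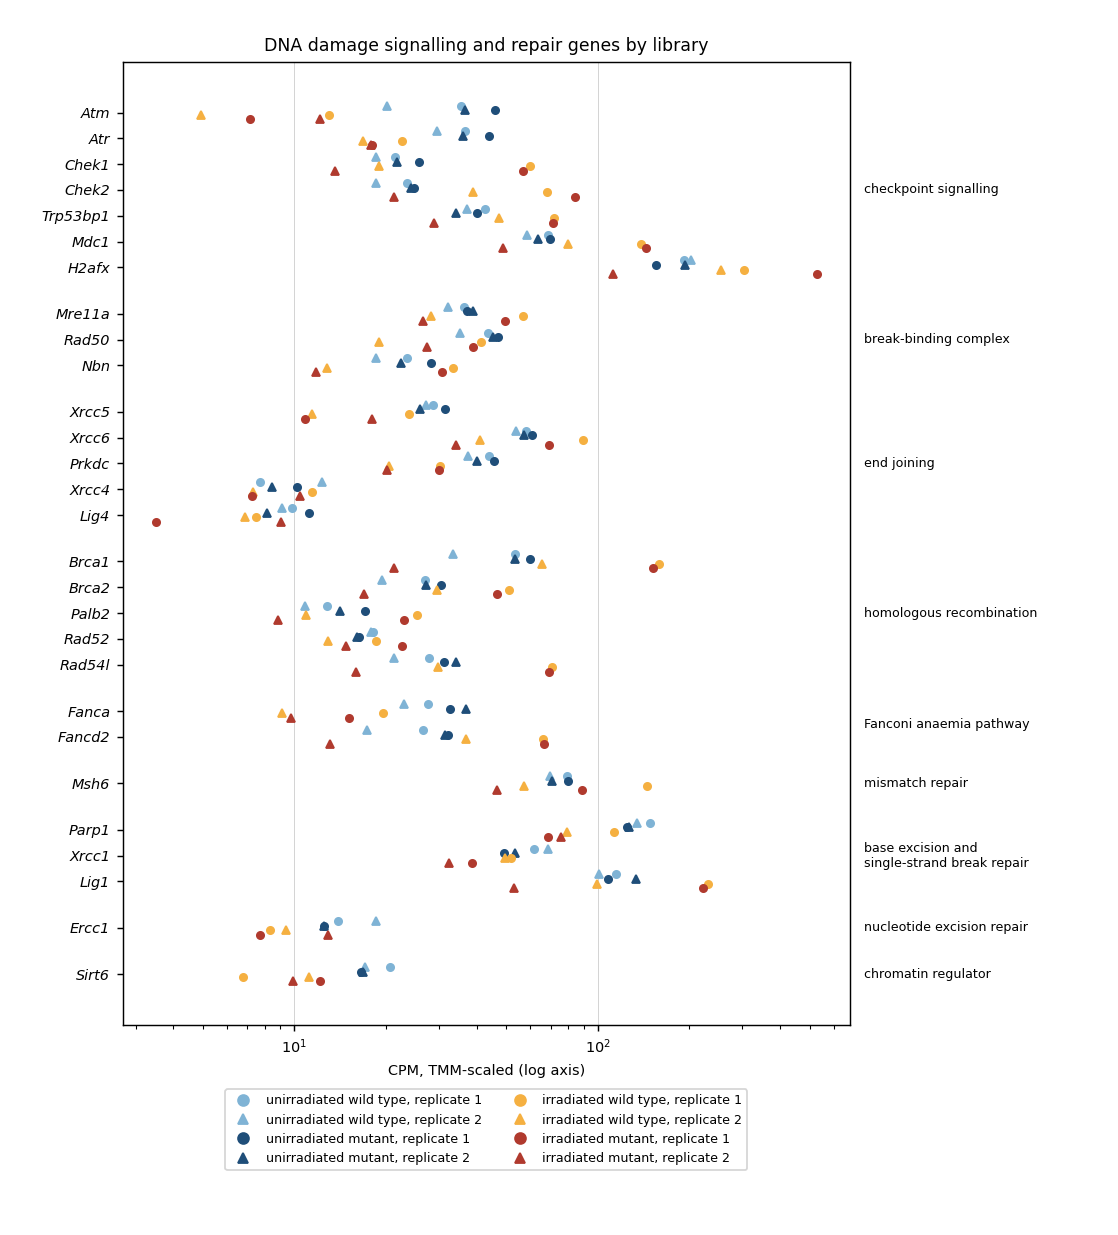
Level of each of the 28 members on a horizontal log axis in CPM, 1 line of points a gene and 1 point a library, with colour for the group and circles and triangles for replicates 1 and 2. All 4 irradiated points of Atm, Atr and Fanca lie left of the 4 unirradiated ones, and the irradiated circles and triangles of Brca1, Chek1 and Fancd2 lie far apart.

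At 7 days after irradiation, 3 members were lower and none was higher when the irradiation difference was averaged over both genotypes. They were Atm, which starts the response to double-strand breaks, Atr, its counterpart for stalled forks, and Fanca, a core subunit of the Fanconi anaemia complex that handles crosslinked DNA. These are 3 of 28 members, or 10.7%, against 12.2% of all genes called in either direction and 5.77% called lower, so the share is near the background. At an unadjusted p under 0.05 there were 9 members, 1 higher and 8 lower, beside 34.9% of all genes.

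Atm (chr9:53439149-53536740, minus strand) was 35.6 and 20.2 CPM in unirradiated wild-type mice and 46.0 and 36.7 CPM in unirradiated mutant mice. After irradiation it was 13.0 and 4.95 CPM in the wild type, against 7.12 and 12.1 CPM in the mutants. Every irradiated library lay below every unirradiated one. The averaged difference was -1.86 ± 0.37 log2 (3.64-fold lower, adjusted p = 0.0252 by edgeR), the largest decrease among the members.

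Atr (chr9:95857597-95951781, plus strand) was 36.5 and 29.6 CPM in unirradiated wild-type mice, 43.8 and 36.1 CPM in unirradiated mutant mice, 22.7 and 16.9 CPM in irradiated wild-type mice and 17.99 and 17.88 CPM in irradiated mutant mice. The groups with and without irradiation again did not overlap, and the averaged difference was -0.95 ± 0.20 log2 (adjusted p = 0.0294). Fanca (chr8:123268300-123318576, minus strand) was 27.6 and 23.0 CPM in unirradiated wild-type mice and 32.6 and 36.9 CPM in unirradiated mutant mice. It stood at 19.6 and 9.10 CPM in irradiated wild-type mice and 15.2 and 9.74 CPM in irradiated mutant mice, a difference of -1.15 ± 0.29 log2 (adjusted p = 0.0440). The Fanca exons share 10.5% of their bases with Zfp276 on the other strand, and Atr shares at most 3.07% with any neighbour. The strand setting of the counting was not given in the sources used here.

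The calls of these 3 genes depended on which library was left out, while their estimates stayed negative. Without any 1 of the 4 unirradiated libraries 0 members passed, and 0.327% to 0.514% of all genes did. Without replicate 2 of the irradiated wild-type mice 0 members passed beside 3.54% of all genes, and without replicate 1 Atm and Fanca passed beside 3.7%. Leaving out replicate 1 of the irradiated mutant mice gave 7 members beside 22.2% of all genes, and leaving out replicate 2 gave 17 (8 higher, 9 lower) beside 38.8%. Atm, Atr and Fanca were among the members called in both of these settings. Over all 15 alternatives the estimate ranged from -2.31 to -1.62 for Atm, from -1.32 to -0.87 for Atr and from -1.56 to -0.95 for Fanca.

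A further 4 members had every irradiated library below every unirradiated one without passing the adjusted threshold. Prkdc encodes the catalytic kinase of end joining, and its difference was -0.73 ± 0.23 (adjusted p = 0.0696). Xrcc5 encodes a Ku subunit that caps broken ends, at -0.82 ± 0.29 (adjusted p = 0.0937). Parp1, which marks nicks with poly(ADP-ribose), stood at -0.68 ± 0.21 (adjusted p = 0.0658), and the deacetylase Sirt6 at -0.84 ± 0.24 (adjusted p = 0.0587). With Atm, Atr and Fanca, 7 of 28 members (25%) were lower without overlap, against 14.2% of all genes, and 0 members were higher without overlap, against 12.8% of all genes.

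Taken by genotype, irradiation gave 0 calls among the members in wild type, where 0.0577% of all genes were called, and 0 in mutants, where 0.6% were called. In wild type, 4 members had an unadjusted p under 0.05, beside 17.3% of all genes, and in mutants 6 did, beside 22.1%. DESeq2 called 1 member in wild type, beside 6.7% of all genes, and 4 in mutants, beside 11.3%. With limma-voom 0 members were called in either genotype, beside 0.0289% of all genes in wild type and 0.606% in mutants. For Atm the difference was -1.64 ± 0.52 in wild type and -2.09 ± 0.53 in mutants, for Atr -0.74 ± 0.29 and -1.16 ± 0.29, and for Fanca -0.82 ± 0.41 and -1.48 ± 0.42.

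**Figure D2:**
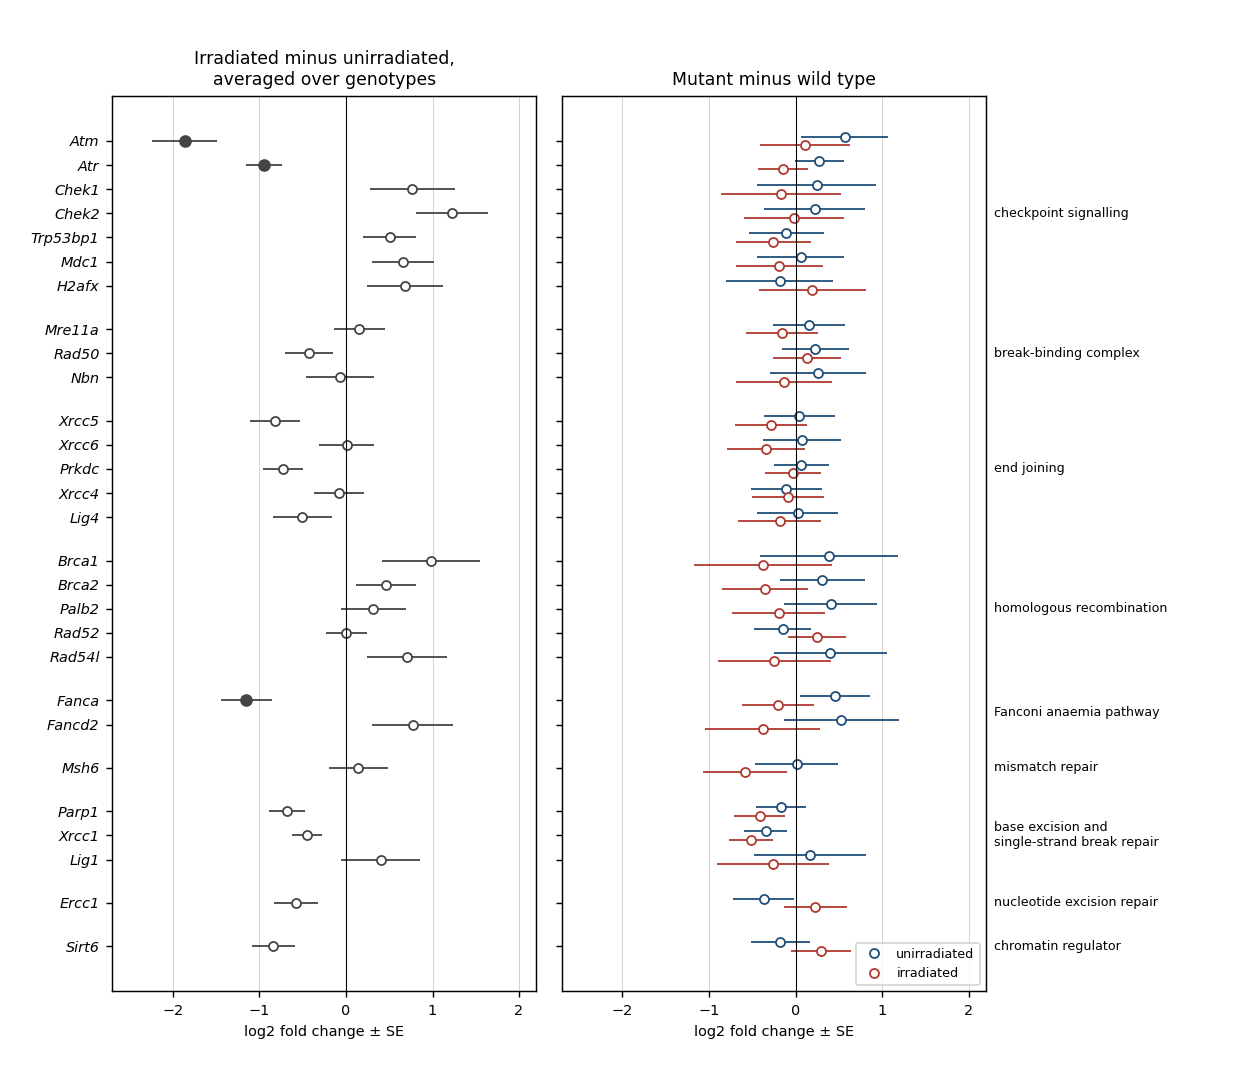
Log2 fold change of each of the 28 members, ordered by role, with irradiation averaged over genotypes (left) and between mutant and wild type at each time (right); points are estimates, bars 1 SE and filled points passed the adjusted threshold of 0.05. Atm, Atr and Fanca are the filled points, all below 0 in the left panel.

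Among the other checkpoint members the direction was opposite to that of the kinases Atm and Atr, but no difference passed. Chek2, the kinase downstream of Atm, had the largest increase of the 28: 23.5 and 18.5 CPM in unirradiated wild-type mice, 24.7 and 24.2 CPM in unirradiated mutant mice, 67.9 and 38.8 CPM in irradiated wild-type mice, and 84.1 and 21.4 CPM in irradiated mutant mice. Only the second irradiated mutant library overlapped the unirradiated range, and the difference was 1.22 ± 0.42 (adjusted p = 0.0839). Chek1, the kinase downstream of Atr, was 18.6 to 25.7 CPM without irradiation. It was 59.8 and 18.99 CPM in irradiated wild-type mice and 56.7 and 13.7 CPM in irradiated mutant mice, so that 1 library of each irradiated group was high and the other was not (0.77 ± 0.49, adjusted p = 0.291).

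The histone gene H2afx was 155 to 203 CPM without irradiation, 304 and 254 CPM in irradiated wild-type mice, and 527 and 112 CPM in irradiated mutant mice. Both the highest and the lowest value of this gene were in irradiated mutant mice, and its difference was 0.68 ± 0.44 (adjusted p = 0.291). Per kilobase of exon it was the most abundant member, with a mean of 143 CPM per kilobase in unirradiated wild-type mice. Mdc1, the scaffold that binds phosphorylated H2afx, was 58.6 to 69.5 CPM without irradiation, 139 and 79.7 CPM in irradiated wild-type mice, and 144 and 48.9 CPM in irradiated mutant mice (0.66 ± 0.36, adjusted p = 0.224). Trp53bp1, which protects ends from resection, had a difference of 0.50 ± 0.31 (adjusted p = 0.270), with 2130 of its 14164 exonic bases shared with Tubgcp4 on the other strand.

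In the complex that binds broken ends 0 of 3 members passed the threshold. Mre11a, the nuclease, was at 0.16 ± 0.29, Nbn, the subunit that recruits Atm, at -0.07 ± 0.39, and Rad50, which tethers the ends, at -0.43 ± 0.28. Their adjusted p-values were 0.729, 0.919 and 0.299.

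The end joining members had estimates of 0.01 or below, and 0 of 5 passed. Xrcc5 was 28.7 and 27.1 CPM in unirradiated wild-type mice, 31.5 and 26.0 CPM in unirradiated mutant mice, 24.0 and 11.5 CPM in irradiated wild-type mice, and 10.9 and 18.1 CPM in irradiated mutant mice. Prkdc was 43.9 and 37.5 CPM, then 45.5 and 39.9 CPM, in the unirradiated groups, and 30.3 and 20.6 CPM, then 29.9 and 20.2 CPM, in the irradiated ones. In both genes the irradiated libraries stayed below the unirradiated ones.

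Xrcc6, which encodes the partner of Xrcc5 in the Ku ring, was 53.8 to 60.8 CPM without irradiation, 89.4 and 40.8 CPM in irradiated wild-type mice, and 69.0 and 34.1 CPM in irradiated mutant mice. Its mean difference was 0.01 ± 0.32, with 1 library of each irradiated group above the unirradiated range and the other below it. Xrcc4 and Lig4 encode the scaffold and ligase of the last step, and were at -0.08 ± 0.29 and -0.50 ± 0.34. Lig4 was 8.14 to 11.2 CPM without irradiation and 3.50 to 9.02 CPM with it.

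The recombination members had positive estimates, none past the threshold. Brca1, a scaffold of end resection and recombination, was 53.4 and 33.4 CPM in unirradiated wild-type mice and 60.1 and 53.6 CPM in unirradiated mutant mice. It was 159 and 65.4 CPM in irradiated wild-type mice and 152 and 21.3 CPM in irradiated mutant mice. The second irradiated mutant library was the lowest of all 8 and the first among the highest, and the difference was 0.99 ± 0.57 (adjusted p = 0.247).

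Brca2 is a mediator of strand exchange in recombination, and its difference was 0.46 ± 0.35 (adjusted p = 0.365). Palb2, which joins Brca1 to Brca2, was at 0.32 ± 0.38 (adjusted p = 0.572), and the translocase Rad54l at 0.71 ± 0.46 (adjusted p = 0.303, with 15.4% of its exonic bases shared with Lrrc41). Rad52, an annealing factor, was at 0.00 ± 0.23. Rad54l was 21.4 to 34.0 CPM without irradiation, 70.9 and 29.8 CPM in irradiated wild-type mice, and 69.3 and 16.0 CPM in irradiated mutant mice, the same order of libraries as for Brca1 after irradiation.

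Of the Fanconi anaemia pair, Fanca was lower while Fancd2, the substrate that the core complex ubiquitinates, was at 0.77 ± 0.47 (adjusted p = 0.272). Fancd2 was 17.3 to 32.1 CPM without irradiation, 65.9 and 36.8 CPM in irradiated wild-type mice, and 66.3 and 13.1 CPM in irradiated mutant mice. The ratio of Fancd2 to Fanca within a library, looked at after the values were seen and not tested, was 0.753 to 0.983 without irradiation, 3.37 and 4.05 in irradiated wild-type mice, and 4.37 and 1.35 in irradiated mutant mice. The ratio of Chek2 to Atm, chosen the same way, was 0.537 to 0.918 without irradiation, 5.23 and 7.84 in irradiated wild-type mice, and 11.8 and 1.76 in irradiated mutant mice. Both ratios were higher in each of the 4 irradiated libraries than in any unirradiated one, whatever the scaling of the libraries. The ratio of Chek1 to Atr, chosen the same way, did so too, at 0.586 to 0.628 without irradiation and 0.765 to 3.15 with it. The ratio of Brca1 to Prkdc did not. It was 0.89 to 1.34 without irradiation, 5.25 and 3.18 in irradiated wild-type mice, and 5.07 and 1.06 in irradiated mutant mice.

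Msh6, which recognises mismatched bases, was 69.8 to 80.0 CPM without irradiation. It was 145 and 57.0 CPM in irradiated wild-type mice and 88.9 and 46.5 CPM in irradiated mutant mice, above the unirradiated range in 1 library of each group and below it in the other (0.14 ± 0.34, adjusted p = 0.790). Among base excision and single-strand break genes, Parp1 was 125 to 149 CPM without irradiation, 114 and 79.2 CPM in irradiated wild-type mice, and 68.7 and 75.8 CPM in irradiated mutant mice. Xrcc1, the scaffold of single-strand break repair, was at -0.45 ± 0.18 (adjusted p = 0.115), and Lig1, which seals nicks and replication fragments, at 0.40 ± 0.46 (adjusted p = 0.555).

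Lig1 followed the recombination members by library, with 101 to 133 CPM without irradiation, 230 and 99.7 CPM in irradiated wild-type mice, and 222 and 52.9 CPM in irradiated mutant mice. Ercc1, the partner of the nuclease Xpf in nucleotide excision repair, was at -0.58 ± 0.25 (adjusted p = 0.151). Sirt6 was 16.7 to 20.7 CPM without irradiation, 6.76 and 11.2 CPM in irradiated wild-type mice, and 12.2 and 9.91 CPM in irradiated mutant mice.

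Set against each other, recombination and end joining differed in sign. The median averaged difference was 0.46 over the 5 recombination members and -0.50 over the 5 end joining members, with Msh6 at 0.14, all 28 members at 0.01 and all genes tested at 0.11. In wild type alone these were 0.80 for recombination, -0.40 for end joining and 0.44 for Msh6, and in mutants 0.20, -0.61 and -0.16. With libraries scaled to their raw totals, the median of all genes moved by -0.36 log2. The recombination median was then 0.01 and the end joining median -0.81, which relative to the median of all genes is 0.26 and -0.56, against 0.35 and -0.62 with TMM. Msh6 turned to -0.29 with raw totals. Rad52 and Xrcc6 were near 0 and fell on either side of it with other scalings, and Palb2 fell below 0 with raw totals. Without replicate 1 of the irradiated mutant mice the recombination median turned to -0.09, with 0 of 5 members above 0, and the end joining median was -0.35.

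Within a library the difference between the 2 pathways does not depend on scaling. The mean log2 CPM of the 5 recombination members minus that of the 5 end joining members was 0.15 and -0.24 in unirradiated wild-type mice and 0.14 and 0.29 in unirradiated mutant mice. It was 1.12 and 0.81 in irradiated wild-type mice, and 1.75 and -0.12 in irradiated mutant mice. So 3 of the 4 irradiated libraries lay above every unirradiated one, and replicate 2 of the irradiated mutant mice lay within the unirradiated range. The means were 0.08 ± 0.23 (SD, n = 4) without and 0.89 ± 0.78 (SD, n = 4) with irradiation. Their difference of 0.80 ranged from 0.52 to 1.14 when 1 library was left out and from 0.70 to 0.90 when 1 member was left out.

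Msh6 minus the end joining mean was 1.82 and 1.61 in unirradiated wild-type mice, 1.67 and 1.74 in unirradiated mutant mice, 2.69 and 2.04 in irradiated wild-type mice, and 2.63 and 1.50 in irradiated mutant mice. Its means were 1.71 ± 0.09 and 2.22 ± 0.56 (SD, n = 4). Here 3 irradiated libraries lay above the unirradiated range and replicate 2 of the irradiated mutant mice lay below it. This measure and the one before subtract the same end joining mean, so they are not independent. Msh6 minus the recombination mean was 1.45 to 1.85 without irradiation, 1.58 and 1.24 in irradiated wild-type mice, and 0.89 and 1.62 in irradiated mutant mice. There 1 library of each irradiated group lay below the unirradiated range and the other within it.

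**Figure D3:**
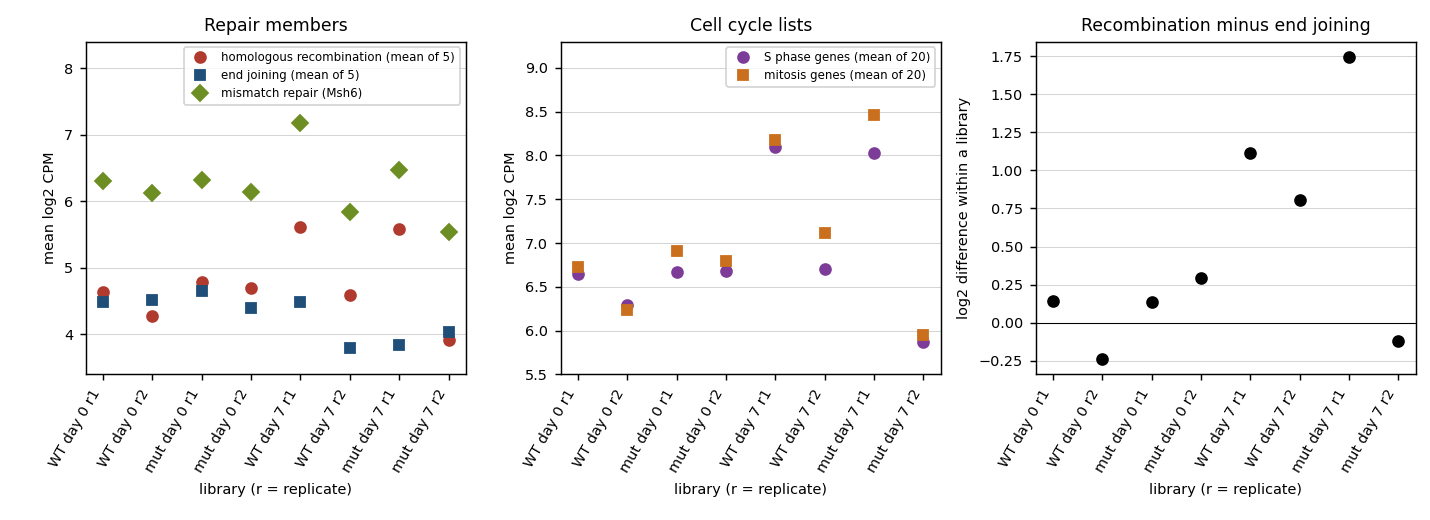
Values in each of the 8 libraries: mean log2 CPM of the 5 recombination and 5 end joining members and of Msh6 (left), mean log2 CPM of 20 S phase and 20 mitosis genes (middle), and recombination minus end joining in log2 (right). The right panel is highest at 1.75 in replicate 1 of the irradiated mutant mice and is -0.12 in replicate 2.

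The irradiated replicates differed more among the members than the unirradiated ones. The median absolute log2 difference between the 2 replicates was 0.24 in unirradiated wild-type mice, 0.17 in unirradiated mutant mice, 0.82 in irradiated wild-type mice and 0.98 in irradiated mutant mice. Over all genes these medians were 0.25, 0.22, 0.62 and 0.83. In both irradiated groups 21 of 28 members (75%) were higher in replicate 1, against 34.8% of all genes, and 7 members (25%) were over 2-fold higher in both, against 5.14%. Those 7 were Chek1, Nbn, Xrcc6, Brca1, Palb2, Rad54l and Lig1.

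By role, replicate 1 was higher for 5 of 5 recombination members in both irradiated groups. For end joining it was higher for 5 of 5 in irradiated wild-type mice and 2 of 5 in irradiated mutant mice. Brca1 differed by 1.28 log2 in irradiated wild-type mice and 2.82 log2 in irradiated mutant mice, and Fancd2 by 0.84 and 2.33. Atm differed by 1.37 in irradiated wild-type mice but -0.76 in irradiated mutant mice, Xrcc5 by 1.05 and -0.73, and Lig4 by 0.12 and -1.34.

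Genes of DNA replication and mitosis split these libraries in the same way. The mean log2 CPM of 20 S phase genes was 6.29 to 6.68 without irradiation, 8.10 and 6.70 in irradiated wild-type mice, and 8.03 and 5.86 in irradiated mutant mice, and 20 of 20 were higher in replicate 1 of both irradiated groups. For 20 mitosis genes it was 6.23 to 6.91 without irradiation, 8.18 and 7.12 in irradiated wild-type mice, and 8.46 and 5.94 in irradiated mutant mice. Cell type markers moved too. The summed level of 10 B cell markers was 2509 to 4823 CPM without irradiation, 779 and 1555 CPM in irradiated wild-type mice, and 89.2 and 1217 CPM in irradiated mutant mice, lower in replicate 1 for 10 of 10. The 10 T cell markers summed to 622 to 1057 CPM without irradiation, 532 and 972 CPM in irradiated wild-type mice, and 171 and 1285 CPM in irradiated mutant mice. The mean log2 CPM of 9 erythroid markers was 9.52 to 10.15 without irradiation, 11.52 and 11.20 in irradiated wild-type mice, and 12.65 and 8.97 in irradiated mutant mice. Their summed level was 19320 to 43090 CPM without irradiation. The sum was 61600 and 70950 CPM in irradiated wild-type mice, the reverse order of replicates, and 164100 and 13610 CPM in irradiated mutant mice. In the averaged irradiation difference 1112 of all 17327 genes were called higher and 999 lower. There 9 of 10 granulocyte markers and 1 of 10 B cell markers were lower. In the same test 3 of 10 stroma, 4 of 10 liver and fat, 1 of 10 macrophage and 1 of 9 erythroid markers were higher, and 0 of 10 T cell and 0 of 8 plasma cell markers were called. The part of these shifts in the members' values was not tested.

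**Figure D4:**
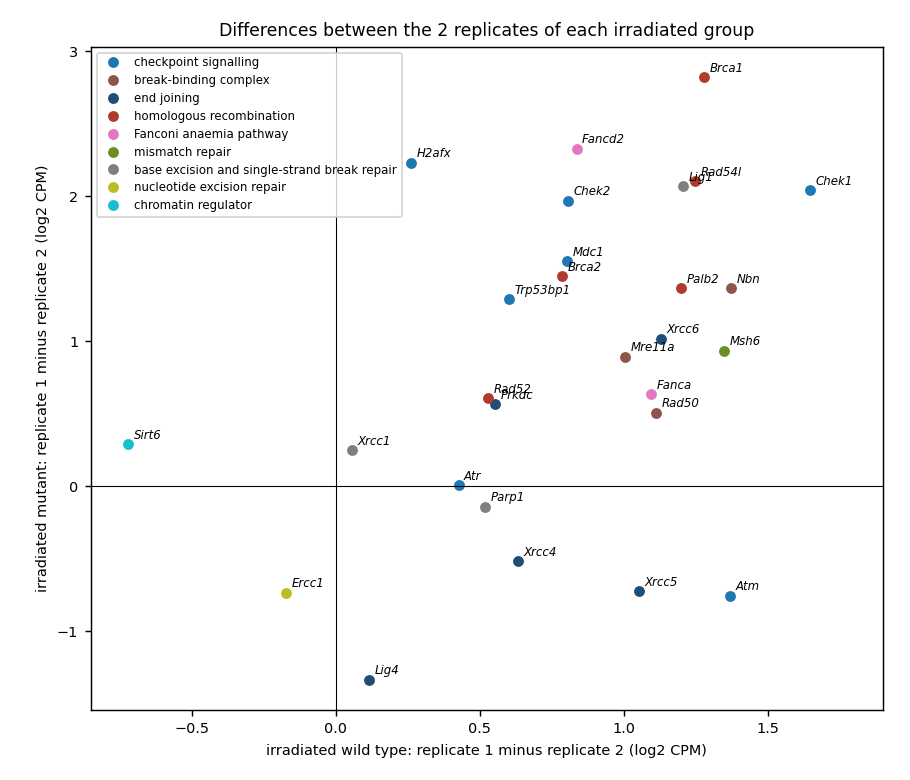
Difference in log2 CPM between replicate 1 and replicate 2 of the irradiated wild-type mice (horizontal) and of the irradiated mutant mice (vertical), 1 point a member, coloured by role. Of the 28 points 21 lie above 0 on both axes, with Brca1 at 1.28 and 2.82, while Atm, Xrcc5, Xrcc4, Lig4 and Parp1 lie below 0 on the vertical axis only.

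The mutants were compared with wild type to see whether the R527C change alters these genes, and no difference passed. Without irradiation 0 of 28 members were called, beside 0% of all genes, and 0 had an unadjusted p under 0.05 (388 genes did). After irradiation 0 were called, beside 0% of all genes, and 0 members had an unadjusted p under 0.05 (696 genes did). DESeq2 called 0 members in either comparison, beside 0.346% of all genes without irradiation and 0.421% after it. With limma-voom 0 members were called in either, beside 0% of all genes. Lmna itself was 108 and 81.3 CPM in unirradiated wild-type mice and 86.9 and 86.3 CPM in unirradiated mutant mice, and a missense change need not alter its level, so this does not check the genotype labels.

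Without irradiation, 20 of 28 members had estimates above 0, with a median of 0.11 log2 over the members and -0.02 over all genes. In 11 members (39.3%) both mutant libraries were above both wild-type ones, against 20.8% of all genes: Atm, Chek1, Chek2, Mre11a, Rad50, Brca1, Brca2, Palb2, Rad54l, Fanca and Fancd2. In 5 members (17.9%) both were below, against 25% of all genes: Rad52, Parp1, Xrcc1, Ercc1 and Sirt6. The largest estimates were 0.57 ± 0.50 for Atm, 0.53 ± 0.66 for Fancd2 and 0.46 ± 0.41 for Fanca, each with an adjusted p of 1. In the same contrast 20 S phase genes had a median of 0.20 and 10 granulocyte markers a median of 2.54; their part in the members' values was not tested.

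After irradiation the estimates leaned the other way, with 6 of 28 above 0, a median of -0.18 over the members and 0.02 over all genes. No member was higher in both mutant libraries (10.4% of all genes were), and Parp1 and Xrcc1 were lower in both (7.14% of members, 7.46% of all genes). Their differences were -0.42 ± 0.29 for Parp1 and -0.51 ± 0.25 for Xrcc1. Msh6 was at -0.58 ± 0.48, Brca1 at -0.38 ± 0.80 and Atm at 0.11 ± 0.52.

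The interaction asks whether irradiation changed a gene differently in mutants and wild type, and 0 of 28 members were called, beside 0% of all genes. At an unadjusted p under 0.05 there were 0 members and 277 genes. DESeq2 called 0 members beside 0.0231% of all genes, and limma-voom 0 members beside 0%. The estimate was below 0 for 23 of 28 members and for 7943 of all 17327 genes. It was also below 0 for 19 of 20 S phase genes and 20 of 20 mitosis genes. The part of these genes in the members' values was not tested. Fancd2 was at -0.91 ± 0.94, Brca1 at -0.77 ± 1.13 and Fanca at -0.66 ± 0.58, and all 28 adjusted p-values were 1.

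Other genes of the same pathways were tested in the irradiation difference averaged over genotypes. In that contrast 12.2% of all genes were called in either direction, 5.77% were called lower, and 1112 of 17327 were called higher. Of 14 other end joining genes 2 were lower and 0 higher. Their median difference was -0.06, with 7 above 0 and 7 below, against -0.50 for the 5 end joining members. The polymerase Poll was 12.1 to 19.2 CPM without irradiation and 4.87 to 8.80 CPM with it (-1.24 ± 0.26, adjusted p = 0.0280). Of 28 other recombination genes 2 were higher and 0 lower. Their median difference was 0.55, with 21 above 0 and 7 below, against 0.46 for the 5 recombination members. Sfr1, a recombination cofactor, was 48.6 to 61.2 and 95.7 to 149.5 CPM (1.11 ± 0.22, adjusted p = 0.0241), and the recombination gene Rad51b was 3.16 to 4.53 and 7.20 to 9.01 CPM (1.10 ± 0.28, adjusted p = 0.0427). In these 3 genes the irradiated and unirradiated libraries did not overlap.

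Of 6 other mismatch repair, 12 other Fanconi anaemia, 17 other checkpoint genes and 6 other sirtuins, 0 were called in either direction, with median differences of -0.34, 0.10, 0.46 and -0.28. Of 17 other base excision genes 1 was lower, Lig3, the ligase partner of Xrcc1 (-0.95 ± 0.22, adjusted p = 0.0340). Of 19 other nucleotide excision genes 2 were lower: Ddb2, a sensor of ultraviolet damage (-1.56 ± 0.24, adjusted p = 0.0148), and Xpc (-1.07 ± 0.28, adjusted p = 0.0474).

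In the same contrast 1112 of all 17327 genes were called higher and 999 lower. Targets of p53, the transcription factor that Atm and Chek2 activate, were tested there. Of 16 genes 6 were higher and 0 lower, led by the cell cycle inhibitor Cdkn1a at 6.37 to 10.8 CPM without irradiation, 49.2 and 49.6 CPM in irradiated wild-type mice, and 158 and 62.5 CPM in irradiated mutant mice (3.16 ± 0.35, adjusted p = 0.00617). Phlda3, an inhibitor of Akt signalling, was at 1.91 ± 0.24 (adjusted p = 0.00941) and Eda2r, a death receptor family member, at 3.26 ± 0.48 (adjusted p = 0.0136). The same 3 genes were called in mutants alone, beside 0.6% of all genes, and 0 of 16 in wild type alone, beside 0.0577%. Of the 16, 15 were above 0 in mutants and 14 in wild type. The interaction called 0 of 16, beside 0% of all genes. The 20 S phase and 20 mitosis genes had 0 calls, with medians of 0.83 and 1.05, and 20 and 19 of them above 0.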

How the data were processed

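Whole-spleen RNA was sequenced in 8 libraries, 2 in each of 4 groups. The submitters' processing notes name the tools Trim Galore, Subread and featureCounts and the builds hg38 and mm10. For versions, annotation and strand setting: not given in the sources used here. The deposited values are raw read counts per Ensembl gene, made by the authors, for 52636 genes, 52403 of which matched a symbol. The growth protocol in the labels concerns human cells and was not used.

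Counts were tested with edgeR 4.0.16 (R 4.3.3; quasi-likelihood F test, TMM, filterByExpr with a minimum count of 10 and total of 15) in 1 fit with a term per group, with Benjamini-Hochberg adjustment over 17327 genes. The fit had 4 residual degrees of freedom. SE is the log2 fold change over the square root of F, and mean log2 CPM used a prior count of 2. The scripts were tested on simulated data. Alternatives were other scalings, no filter, DESeq2 1.42.0, limma 3.58.1, a replicate block, fits of the compared groups alone and leaving out each library. The members and lists were chosen with earlier results of these data known. All 28 members are named. Of the other pathway, S phase, mitosis and p53 target lists, up to 3 called genes with the smallest p are named, except 1 that is not reported here. Cell type markers are given as counts, summed levels, mean log2 CPM or median differences. Floors cover counting error only.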

Additional observations from a re-analysis of the deposited data

How the results depend on the processing

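Genotype and interaction calls among the 28 members were 0 under every alternative run. Fits of only the groups compared were run for the genotype differences but not for the interaction. For genotype without irradiation that fit called 469 of 16665 genes (2.81%). For the averaged irradiation difference 3 members passed, beside 12.2% of all genes. The count was 4 with DESeq2's size factors (12.3% of all genes), 3 with upper quartile scaling (10.4%) and 3 with limma-voom (12.1%). It was 7 with raw library totals (9.87%), 9 without the filter (15.7%) and 9 with DESeq2 (27.1%). With 1 library left out it ranged from 0 to 17. In wild type the count of 0 became 3 without the filter (5.35% of all genes) and 1 with DESeq2 (6.7%). In mutants the count of 0 became 3 without the filter (7.27% of all genes) and 4 with DESeq2 (11.3%). Both counts also moved when some libraries were left out, in fits that leave 1 group with 1 library. The end joining median moved from -0.50 to -0.81 with raw totals. The estimates of the 3 members called in the averaged difference stayed below 0 under every alternative. Other members changed sign. Brca1, Rad54l, Fancd2 and H2afx were above 0 with all libraries and below 0 without replicate 1 of the irradiated mutant mice. Replicate numbers are shared by the groups but the labels do not say that they pair the samples, and the correlations of same-numbered deviations were 0.035 to 0.465. With the replicate block 4 members passed in the averaged difference (Atm, Atr, Prkdc and Fanca, beside 17.5% of all genes). The other 5 counts were 0, beside 0% to 1.46% of all genes. The adjusted p over the 15 alternatives was 1.54e-08 to 0.130 for Atm, 0.000375 to 0.158 for Atr and 0.000505 to 0.181 for Fanca. The cause of these shifts was not tested. With 2 libraries a group, a p that misses the threshold does not show that levels were equal.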
